A study of Mus musculus with 36 samples.

Results

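The genotype by imipramine interaction asked of each gene whether imipramine (IMN) moved it differently in Brd1+/- than in wild-type (WT) mice. It was taken as the difference IMN minus vehicle in Brd1+/- mice less the same difference in WT mice, over all 36 libraries of the anterior cingulate cortex (aCC) out of 36 in the series. The groups were WT vehicle (n = 8), WT IMN (n = 10), Brd1+/- vehicle (n = 9) and Brd1+/- IMN (n = 9). Of 52636 genes, 17716 had a mean of at least 1 TPM (a transcript level per length, relative to the library's total) and were tested. All mice were females, labelled as strain C57BL/6NTac-Brd1, 8 to 11 weeks old, and litter-matched. Brd1+/- mice carried a targeted deletion within 1 Brd1 allele in every tissue, so that effects of its loss in development and in the adult are not separated. IMN was given subcutaneously at 10 mg/kg and vehicle was saline. Each mouse was injected on 2 days and passed a tail suspension test on the first and an open field and forced swim on the second, shortly before the brains were taken. Every level therefore follows injection and stress also in the vehicle groups, and each library came from 1 punch of frozen tissue from 1 hemisphere.

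Imipramine is a tricyclic antidepressant that blocks the reuptake of serotonin and noradrenaline and antagonizes muscarinic, histamine and alpha-adrenergic receptors. BRD1 is a scaffold of histone acetyltransferase complexes, where it joins the enzymes HBO1 (Kat7) and MOZ (Kat6a) to chromatin through its reader domains. A positive interaction means that the change with IMN was more upward, or less downward, in Brd1+/- than in WT mice. A negative value means the reverse. Immediate-early genes such as Fos and Arc respond quickly to neuronal activity, and glucocorticoid-responsive genes such as Fkbp5 respond to the stress hormone.

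The libraries correlated with each other over the tested genes (Pearson's r 0.928 to 0.974 over 630 pairs), and no 2 were identical. Slc17a7, the vesicular glutamate transporter of cortical neurons, had group means of 1084 to 1163 TPM. Mitochondrially encoded genes took 21.71 to 30.5% of a library. A pair of vehicle libraries stood apart within their groups. Brd1+/- vehicle 6 had a score (mean log2(TPM + 0.5)) of 6.26 for striatal neuron markers, against at most 3.46 in the other libraries of its group, and of 8.62 for choroid plexus markers, against at most 3.07. WT vehicle 1 had the lowest score of its group for immediate-early genes (4.33, next 5.14) and for upper cortical layer markers (3.93, next 4.83). It had the highest for myelin markers (6.80, next 5.30). Some IMN libraries reached like values. Brd1+/- IMN 6 had 4.11 for immediate-early genes and 7.11 for myelin markers, and WT IMN 7 had 7.21 for myelin markers. These IMN libraries were kept when the pair was left out. Brd1+/- vehicle 7 was kept too. It had the lowest score of its group for GABA-A receptor subunits (5.19, next 5.54) and postsynaptic proteins (6.69, next 7.02). The smaller set is thus not shown to be more even in tissue. The results were therefore also computed without WT vehicle 1 and Brd1+/- vehicle 6. The values without these 2 libraries are given for many results, but not for every call or sign that changed. In a punch, fewer cells of a type and less RNA per cell cannot be told apart.

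In limma, 0 of 17716 genes (0%) had an interaction at an adjusted p-value under 0.05, and the smallest adjusted p-value was 1. At an unadjusted p-value under 0.05 there were 464 genes (2.62% of those tested), and under 0.01 there were 70 (0.395%), 49 positive and 21 negative. Without WT vehicle 1 and Brd1+/- vehicle 6 the adjusted count was again 0 (smallest adjusted p = 0.995), and 70 positive and 21 negative genes lay under 0.01. The excess of positive values depended on how libraries were scaled and weighted, and on single libraries. The split of 49 to 21 became 42 to 36 under median-ratio scaling, 35 to 43 under quantile normalization and 91 to 89 with array weights, where the smallest adjusted p-value of any alternative, 0.354, was found. Leaving out single libraries moved the positive count between 31 (without WT vehicle 7) and 64, and the negative count between 13 (without WT vehicle 4) and 44 (without WT IMN 1), while the adjusted count was 0 each time. Over the 2 scalings the median interaction over all genes was 0.00 and -0.01, against 0.02 without them, on the log2 scale. The interaction of a gene had a median SE of 0.17, and its 95% interval reached 0.34 to either side at the median. For 15776 genes (89%) that interval lay within 1 log2 unit (2-fold) of 0, and for 10261 (57.9%) within 0.5 (1.41-fold), each gene taken alone. Larger interactions were thus outside the interval for most genes, and smaller ones could not be resolved with these group sizes.

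**Figure D1:**
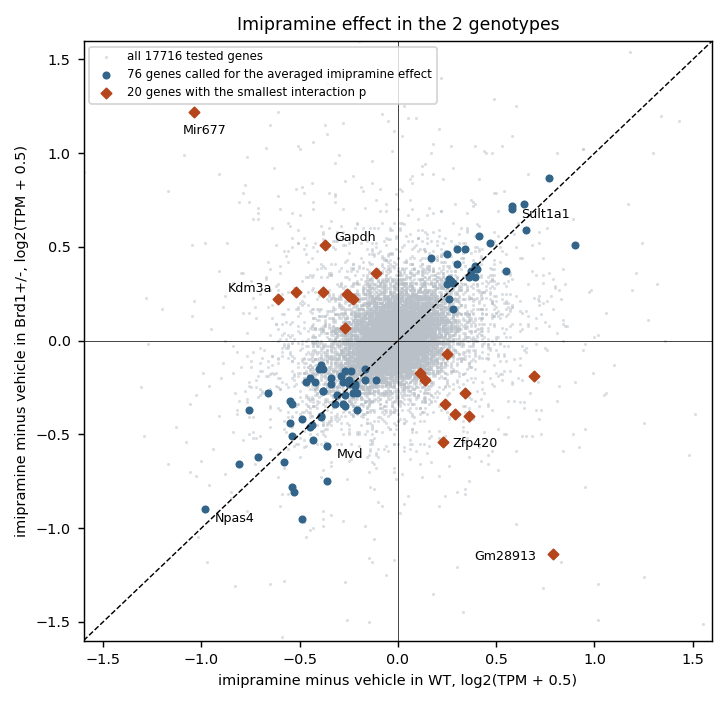
Imipramine minus vehicle in WT mice (x axis) against Brd1+/- mice (y axis), both in log2(TPM + 0.5), for the 17716 tested genes. 29 genes lie beyond the axes at 1.6. The dashed line marks equal effects. The 76 genes called for the averaged effect (blue) have the same sign on both axes, and the 20 genes with the smallest interaction p (red) have opposite signs.

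Brd1 itself, chromosome 15, 88687034 to 88734233 (minus strand, GRCm38), followed its genotype. Its lowest, median and highest levels were 22.6, 26.1 and 31.9 TPM in WT vehicle, 17.9, 24 and 27.8 in WT IMN, 13.8, 16 and 20.9 in Brd1+/- vehicle and 13.5, 17.3 and 19.4 in Brd1+/- IMN. The levels of the Brd1+/- groups lay below the WT vehicle group without overlap, and overlapped the lower end of WT IMN. Its interaction was 0.18 (SE 0.13, 95% interval -0.08 to 0.45), with p = 0.169 in limma before adjustment and 1 after, from -0.18 in WT and 0.01 in Brd1+/- mice. A difference between genotypes in the response of the targeted gene to IMN was not resolved.

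Drd2, the dopamine D2 receptor, is among the genes that the study marks in this tissue. The lowest, median and highest levels were 0.155, 0.604 and 1.48 TPM in WT vehicle, 0.143, 0.516 and 1.12 in WT IMN, 0.347, 0.846 and 34.7 in Brd1+/- vehicle and 0.191, 0.569 and 0.989 in Brd1+/- IMN. All 4 groups overlapped, and Drd2 passed the filter on low values through 1 library: the value of 34.7 TPM belonged to Brd1+/- vehicle 6, the library with high striatal markers. Its interaction was -0.67 (SE 0.60, 95% interval -1.89 to 0.55) with unadjusted p = 0.271, -0.19 without the 2 libraries that stood apart, and 0.29 with striatal and oligodendrocyte scores as covariates. Slc25a35, a mitochondrial carrier, ranged over 3.85, 4.51 and 5.33 TPM in WT vehicle, 3.68, 4.51 and 6.14 in WT IMN, 3.74, 4.63 and 5.05 in Brd1+/- vehicle and 4.49, 5.67 and 7.38 in Brd1+/- IMN. In Brd1+/- mice 9 of 9 IMN libraries lay above the vehicle mean, in WT mice 5 of 10, and the groups overlapped within each genotype. The interaction of Slc25a35 was 0.31 (SE 0.13, 95% interval 0.04 to 0.58) with unadjusted p = 0.0247 and adjusted p = 1 in limma, and it ran from 0.26 to 0.33 over the alternatives. It was 0.27 (p = 0.0555) without the 2 libraries, where it missed 0.05 also before adjustment. Kcnd2, which encodes the A-type potassium channel Kv4.2, gave -0.17 (SE 0.11, 95% interval -0.38 to 0.04) with unadjusted p = 0.118, and its 4 medians were 31.7 and 34.7 TPM in WT vehicle and IMN, and 36.5 and 35 TPM in Brd1+/- vehicle and IMN.

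The 10 genes with the smallest p for a positive interaction, of which 8 encode proteins, were Gm13563, Kdm3a, Usp42, Tom1l2, Mir677, Socs2, Taok2, Dynlt1c, Gapdh and Epha3. In all 10, IMN libraries averaged lower than vehicle in WT and higher than vehicle in Brd1+/- mice, a form that selection by the difference favours. None of the 10 passed adjustment (limma adjusted p = 1 for each), and in no gene were vehicle and IMN libraries free of overlap in either genotype.

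Kdm3a (chromosome 6, 71588972 to 71632990), a demethylase of histone H3 lysine 9, had lowest, median and highest levels of 33.2, 58 and 82.2 TPM in WT vehicle, 27.7, 34.5 and 45.4 in WT IMN, 31.3, 42.3 and 63.9 in Brd1+/- vehicle and 35.1, 48.6 and 75.1 in Brd1+/- IMN. In WT mice 10 of 10 IMN libraries were under the vehicle mean, and in Brd1+/- mice 6 of 9 lay above it. Its interaction was 0.83 (SE 0.22, 95% interval 0.39 to 1.27) with unadjusted p = 0.000489, and 0.92 without the 2 libraries. Without them the fall in WT alone, at -0.70, passed adjustment (limma adjusted p = 0.0419), while the interaction did not. Taok2 (chromosome 7, 126865678 to 126884703), a kinase of the MAP kinase cascade that acts on dendrites, lay at 80, 89 and 101 TPM in WT vehicle, 62.5, 73.4 and 84.1 in WT IMN, 63.9, 70.2 and 84.7 in Brd1+/- vehicle and 59.7, 79.4 and 87.5 in Brd1+/- IMN. It repeated that form, with 10 of 10 WT IMN libraries below the vehicle mean and an interaction of 0.33 (SE 0.10, 95% interval 0.13 to 0.53). Gapdh, the glycolytic enzyme often used as a reference gene, had an interaction of 0.89 (SE 0.27, 95% interval 0.34 to 1.43) over 90.4, 137 and 251 TPM in WT vehicle, 72.7, 111 and 129 in WT IMN, 62.3, 108 and 182 in Brd1+/- vehicle and 102, 129 and 232 in Brd1+/- IMN. Its levels varied widely within each group, and the groups overlapped. The handling of reads that map to several places is not stated, so the level of Gapdh is uncertain.

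Usp42 (chromosome 5, 143710325 to 143732280), a deubiquitinating enzyme, and Tom1l2, an adaptor of endosomal sorting, had values of about the same size and opposite sign in the 2 genotypes. Usp42 had -0.25 in WT and 0.24 in Brd1+/- mice, and levels of 9.7, 13 and 16.2 TPM in WT vehicle, 8.07, 10.8 and 14.1 in WT IMN, 10.1, 12.2 and 14.1 in Brd1+/- vehicle and 11.7, 14.8 and 16.6 in Brd1+/- IMN. Tom1l2 had -0.23 and 0.22, with 9 of 10 WT IMN libraries below and 9 of 9 Brd1+/- IMN libraries above their vehicle mean. The interactions were 0.48 (SE 0.13, 95% interval 0.23 to 0.74) for Usp42 and 0.45 (SE 0.12, 95% interval 0.21 to 0.69) for Tom1l2. Socs2, an inhibitor of growth hormone and cytokine signalling, gave 0.51 (SE 0.15, 95% interval 0.20 to 0.82), and Epha3, an ephrin receptor of axon guidance, 0.64 (SE 0.20, 95% interval 0.24 to 1.05). For Dynlt1c, a dynein light chain, the larger part came from Brd1+/- mice (0.36, against -0.11 in WT), with 9 of 9 IMN libraries above the vehicle mean. Dynlt1c belongs to a family of near-identical copies, so its level is uncertain.

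The remaining positive genes do not encode proteins. Gm13563, an antisense gene at chromosome 2, 26381526 to 26389018, had the smallest p of the positive genes (0.00044) and an interaction of 0.77 (SE 0.20, 95% interval 0.37 to 1.18). Its lowest, median and highest levels were 10.9, 13.9 and 20.9 TPM in WT vehicle, 5.94, 9.76 and 17 in WT IMN, 8.25, 9.82 and 13.6 in Brd1+/- vehicle and 9.63, 12.5 and 16.4 in Brd1+/- IMN. Mir677, annotated as a small RNA gene, had a value of 2.26 (SE 0.60, 95% interval 1.04 to 3.49) from group medians of 1.02 to 3.63 TPM, where the pseudocount bears on the size: the interaction ran from 1.80 to 3.09 over the alternatives. Strand use in the counting is not stated and short genes hold few reads, so both levels are uncertain.

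**Figure D2:**
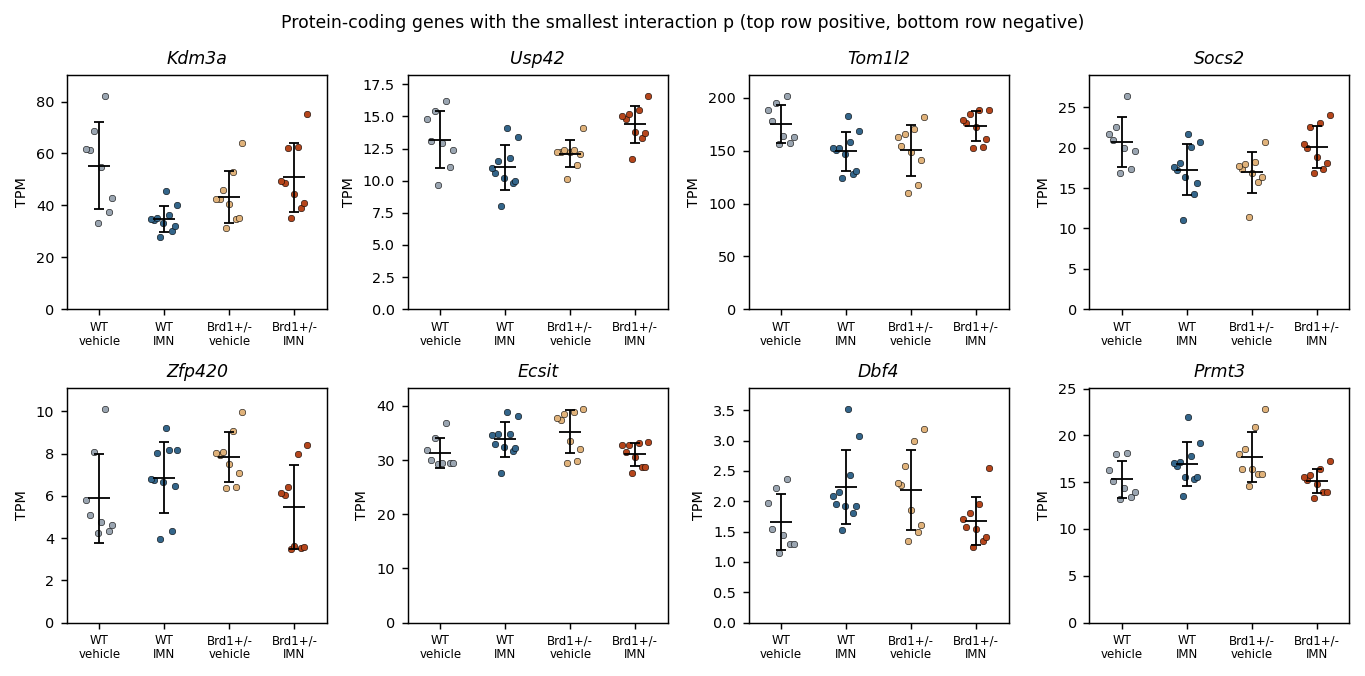
TPM in every library (points) with mean and SD (bars) for the 4 protein-coding genes with the smallest interaction p in each direction, by group (WT vehicle n = 8, WT IMN n = 10, Brd1+/- vehicle n = 9, Brd1+/- IMN n = 9). In Kdm3a, Usp42, Tom1l2 and Socs2 the mean is lower with IMN in WT and higher in Brd1+/-, and in Zfp420, Ecsit, Dbf4 and Prmt3 the reverse. The vehicle and IMN points overlap in every panel.

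Among negative interactions, 5 of the 10 genes with the smallest p encode proteins: Zfp420, Ecsit, Dbf4, Prmt3 and Tvp23b. All 10 averaged higher with IMN in WT and lower with IMN in Brd1+/- mice, again with overlapping groups and a limma adjusted p of 1. Ecsit (chromosome 9, 22072246 to 22085438), an assembly factor of mitochondrial complex I that also acts in Toll-like receptor signalling, had lowest, median and highest levels of 29.2, 29.7 and 36.9 TPM in WT vehicle, 27.7, 33.8 and 38.9 in WT IMN, 29.5, 37.4 and 39.4 in Brd1+/- vehicle and 27.6, 31.5 and 33.4 in Brd1+/- IMN. It lay below the vehicle mean in 9 of 9 Brd1+/- IMN libraries and above it in 9 of 10 WT IMN libraries, and its interaction was -0.28 (SE 0.09, 95% interval -0.48 to -0.09). Prmt3, an arginine methyltransferase of ribosomal protein, had -0.35 (SE 0.12, 95% interval -0.59 to -0.11) with 9 of 9 Brd1+/- IMN libraries below the vehicle mean. Tvp23b, a Golgi membrane protein, was the opposite case: 10 of 10 WT IMN libraries lay above the vehicle mean (0.25), the Brd1+/- value was -0.07, and the interaction -0.32 (SE 0.11, 95% interval -0.54 to -0.10).

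Zfp420 (chromosome 7, 29859979 to 29877292), a zinc finger protein, had levels of 4.22, 4.93 and 10.1 TPM in WT vehicle, 3.95, 6.78 and 9.23 in WT IMN, 6.37, 7.93 and 9.97 in Brd1+/- vehicle and 3.49, 6.03 and 8.39 in Brd1+/- IMN and an interaction of -0.77 (SE 0.25, 95% interval -1.27 to -0.26). Dbf4, the activator of the replication kinase Cdc7, had group medians of 1.49 to 2.27 TPM and gave -0.62 (SE 0.21, 95% interval -1.04 to -0.20). The negative gene with the smallest p (0.000294) was Gm17484, a long intergenic RNA gene at chromosome 8, 25754480 to 25769704, with -0.76 (SE 0.19, 95% interval -1.14 to -0.37) and levels of 1.48, 1.99 and 3.28 TPM in WT vehicle, 1.79, 3.05 and 3.75 in WT IMN, 2.24, 2.92 and 3.48 in Brd1+/- vehicle and 1.34, 2.17 and 3.03 in Brd1+/- IMN. The other non-coding members were the pseudogenes Gm5528 and Gm13602 (-0.58 and -0.68), the small RNA gene Gm22920 (-0.88) and the antisense gene Gm28913 (-1.93). Gm28913 was listed at 0 in 5 of 8 WT vehicle libraries, so its size rests on the pseudocount and ran from -3.85 to -1.28. Reads from pseudogenes and antisense genes may belong to other genes. Over every alternative and with each library left out in turn, all 20 genes named by smallest interaction p kept their sign. Their selection for a small p in these same libraries favours that, so it adds no support.

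The averaged effect of IMN, over both genotypes, picks genes without use of the difference between them. It called 76 genes (38 to 187 with single libraries left out, the highest without WT vehicle 1) at a limma adjusted p under 0.05 (0.429% of those tested), 25 higher and 51 lower with IMN, a split that became 32 to 34 when TPM were rescaled to nuclear genes. The 76 had the same sign in both genotypes (76 of 76), which the selection by their mean favours. What the selection did not use is the interaction. It was under an unadjusted p of 0.05 in 2 of the 76, a share close to the 2.62% over all genes, the smaller of the pair of p-values (0.0237) being that of Usp28, a deubiquitinase named after its values were seen. The change was larger in Brd1+/- mice for 39 and larger in WT mice for 37. Its median size was 0.38 in WT and 0.34 in Brd1+/- mice. Without the 2 libraries the change of the same 76 genes was larger in Brd1+/- mice for 29. The interaction was smaller than the averaged effect for 75 of the 76, which selection for a large averaged effect favours. For 24 of them the whole 95% interval of the interaction lay closer to 0 than the averaged effect did. That selection favours this count too, so neither count shows that the genotypes responded equally.

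Mvd (chromosome 8, 122433601 to 122443422), an enzyme of the mevalonate pathway to cholesterol, had the smallest p for the averaged effect, -0.46 (SE 0.06, adjusted p = 0.000377). Its lowest, median and highest levels were 12.8, 16.2 and 22.2 TPM in WT vehicle, 11.2, 12.9 and 15.1 in WT IMN, 13.9, 17 and 21.8 in Brd1+/- vehicle and 10.1, 11.3 and 13.8 in Brd1+/- IMN. In WT mice 10 of 10 and in Brd1+/- mice 9 of 9 IMN libraries lay below the mean of their vehicle group. The Brd1+/- vehicle and IMN libraries did not overlap, and those of WT mice did. The interaction of Mvd was -0.20 (SE 0.13, 95% interval -0.46 to 0.06).

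Ddit4, an inhibitor of mTORC1 that stress hormones induce, rose by 0.49 (SE 0.08, adjusted p = 0.00108), from medians of 20.5 to 28.8 TPM in WT and 19.2 to 29 TPM in Brd1+/- mice. Its interaction was 0.05 (SE 0.16, 95% interval -0.27 to 0.37). Sult1a1, a phenol sulfotransferase, and Acer2, a Golgi ceramidase, rose by 0.65 and 0.62, with interactions of 0.14 (SE 0.20, 95% interval -0.27 to 0.55) and -0.06 (SE 0.20, 95% interval -0.46 to 0.34). Galnt15, an enzyme of mucin-type glycosylation, rose by 0.64 (SE 0.10, adjusted p = 0.00105), and 10 of 10 WT and 9 of 9 Brd1+/- IMN libraries lay above their vehicle mean. Kirrel2, a cell adhesion protein, rose by 0.46 with an interaction of -0.18 (SE 0.15, 95% interval -0.48 to 0.12).

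Nptx2, a secreted pentraxin that clusters AMPA receptors, fell by 0.66 on the log2 scale (adjusted p = 0.00247), with medians of 104 and 62.1 TPM in WT vehicle and IMN, and 93.2 and 61.8 TPM in Brd1+/- vehicle and IMN. Its interaction was 0.09 (SE 0.23, 95% interval -0.37 to 0.56). Pmepa1, an inhibitor of TGF-beta signalling, and the transcription regulators Arid3b and Mycn fell by 0.40, 0.46 and 0.46, with interactions of -0.02, 0.06 and -0.01. The sign of the interaction of Ddit4, Pmepa1, Mycn and Nptx2 changed when single libraries were left out, and without the 2 libraries the values were 0.18, 0.02, 0.03 and 0.15. In each of the 10 genes with the smallest averaged p, the 95% interval of the interaction held 0.

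**Figure D3:**
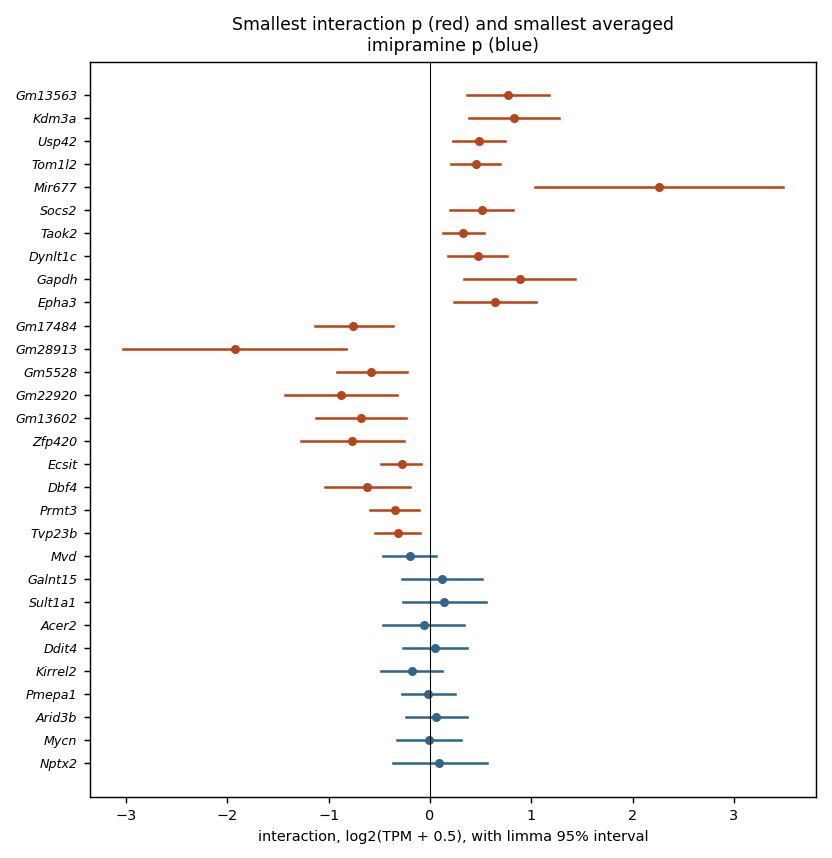
Interaction with its limma 95% interval, in log2(TPM + 0.5), for the 20 genes with the smallest interaction p (red) and the 10 with the smallest p for the averaged imipramine effect (blue). The red intervals do not reach 0, as their selection requires. The blue intervals all cross 0.

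Over all 17716 genes the IMN effects in the 2 genotypes, which share no library, correlated across genes with a Pearson's r of 0.20 and a Spearman's rho of 0.28, as a description of genes that are not independent. The sign was the same for 59.9% of genes. Single genotypes had few calls. At an adjusted p under 0.05 WT mice had 0 genes (1244 at an unadjusted p under 0.05) and Brd1+/- mice had 1, Mvd (-0.56, adjusted p = 0.00677, lower in 9 of 9 IMN libraries). Without the 2 libraries the counts were 27 and 4, and without WT vehicle 1 alone the WT count was 41. At an unadjusted p under 0.01, 312 genes were selected in WT mice and 274 of them (87.8%) had the same sign in Brd1+/- mice. Along the WT direction their median was 0.36 in WT and 0.15 in Brd1+/- mice. In the other direction, 280 genes selected in Brd1+/- mice had the same sign in WT in 247 (88.2%), with medians of 0.35 in Brd1+/- and 0.16 in WT mice. In each case the genotype used for the selection had the larger median, as selection favours, and the fall from one genotype to the other was about equal both ways. All 54 genes under 0.01 in both genotypes had the same sign.

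The 39 lists of genes hold 686 symbols, of which 661 were tested. They are read against the background of the interaction, where 1.86% of genes were positive and 0.762% negative at an unadjusted p under 0.05, and 56.4% of all genes were positive in sign. The 329 positive and 135 negative genes became 263 and 246 under median-ratio scaling and 235 and 271 under quantile normalization. In all, 7 lists held any member under 0.05, and 29 of 39 had a median within 0.1 of 0. In WT mice 2.11% of tested genes were higher and 4.92% lower with IMN at an unadjusted p under 0.05, and in Brd1+/- mice 3.05% were higher and 2.92% lower. These splits moved with the scaling too: 373 higher to 871 lower in WT mice became 592 to 717 under median-ratio scaling, and 541 to 517 in Brd1+/- mice became 733 to 418 when TPM were rescaled to nuclear genes.

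**Figure D4:**
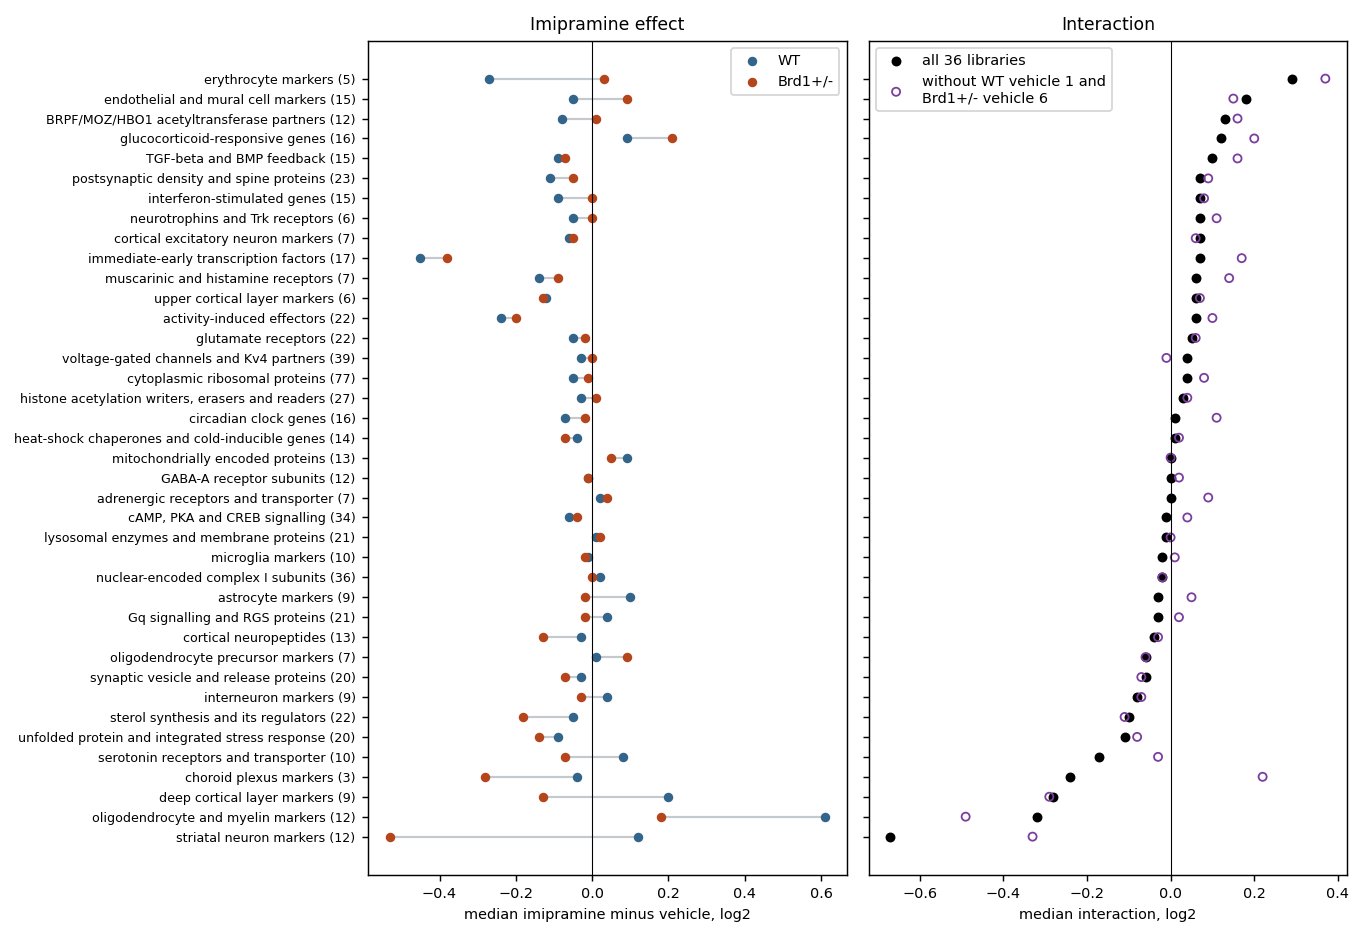
Median over the tested members of each list (number in brackets), in log2(TPM + 0.5). The left panel shows imipramine minus vehicle in WT and in Brd1+/- mice, and the right panel the interaction with all 36 libraries and without WT vehicle 1 and Brd1+/- vehicle 6. Immediate-early transcription factors are at -0.45 and -0.38 in the 2 genotypes, and the lists farthest from 0 in the interaction are cell type markers.

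Immediate-early transcription factors were lower with IMN in both genotypes. Of 17 tested members, 10 were lower at an unadjusted p under 0.05 in WT and 10 in Brd1+/- mice, none higher, with medians of -0.45 and -0.38. None had an interaction under 0.05, and the median interaction was 0.07 (0.17 without the 2 libraries). Without the 2 libraries 12 members were lower in WT mice, and 1 had a positive interaction under 0.05. Npas4, a neuron-specific activity-dependent factor, fell by 0.94 on the log2 scale over both genotypes (adjusted p = 0.00271). The lowest, median and highest levels of Npas4 were 12.4, 36.5 and 63.5 TPM in WT vehicle, 11.8, 18.9 and 25.4 in WT IMN, 23.9, 31.3 and 63.3 in Brd1+/- vehicle and 11.4, 18.3 and 29.4 in Brd1+/- IMN. In WT mice 10 of 10 and in Brd1+/- mice 9 of 9 IMN libraries were under the vehicle mean, and the interaction was 0.09 (SE 0.33, 95% interval -0.58 to 0.76). Fos had medians of 57.9 and 43.2 TPM in WT vehicle and IMN, and 59.5 and 42.9 TPM in Brd1+/- vehicle and IMN, an averaged effect of -0.36 (SE 0.09, adjusted p = 0.0641) that missed adjustment, and an interaction of -0.09 (SE 0.18, 95% interval -0.46 to 0.28). Klf4, a zinc finger factor, had the smallest interaction p of the list, 0.36 (SE 0.23, p = 0.122), from -0.61 in WT and -0.25 in Brd1+/- mice. For Klf4 it was 0.48 (p = 0.0368) without the 2 libraries, and for Npas4 0.24.

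Activity-induced effectors had a median of -0.24 in WT, with 9 of 22 lower at an unadjusted p under 0.05, and -0.20 in Brd1+/- mice, with 7. Their median interaction was 0.06, and 0 of 22 were under 0.05. Arc, which removes AMPA receptors from synapses, fell by 0.67 over both genotypes (adjusted p = 0.00854). Its lowest, median and highest levels were 148, 284 and 343 TPM in WT vehicle, 138, 184 and 300.2 in WT IMN, 153, 277 and 389 in Brd1+/- vehicle and 116, 133 and 269 in Brd1+/- IMN. The interaction of Arc was -0.28 (SE 0.26, 95% interval -0.81 to 0.25), and 9 of 10 WT and 9 of 9 Brd1+/- IMN libraries lay below their vehicle mean. Bdnf, the neurotrophin, had -0.57 in WT and -0.49 in Brd1+/- mice, an averaged adjusted p of 0.12 and an interaction of 0.08 (SE 0.31, 95% interval -0.55 to 0.71). Gadd45b, a stress-induced gene of DNA demethylation, fell by 0.43 (adjusted p = 0.0207) and had an interaction of 0.24 (SE 0.18, p = 0.21). Its value was 0.37 (p = 0.0186) without the 2 libraries, of which WT vehicle 1 was the lowest of its group for Gadd45b and Bdnf, and that of Bdnf was 0.23.

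Glucocorticoid-responsive genes had medians of 0.09 in WT and 0.21 in Brd1+/- mice. At an unadjusted p under 0.05, 3 of 16 were higher and 1 lower in WT, and 6 higher and 1 lower in Brd1+/- mice. The interaction was positive in 12 of 16, with a median of 0.12 (0.20 without the 2 libraries) and 0 members under 0.05. Fkbp5, a co-chaperone of the glucocorticoid receptor, had medians of 15.1 and 18.9 TPM in WT vehicle and IMN, and 14.8 and 16.6 TPM in Brd1+/- vehicle and IMN and an interaction of -0.06 (SE 0.20, 95% interval -0.46 to 0.34). Sgk1, a kinase that glucocorticoids induce, ranged over 29.4, 37.2 and 98.8 TPM in WT vehicle, 29.1, 67.8 and 146 in WT IMN, 28, 44.1 and 99 in Brd1+/- vehicle and 32.4, 61.4 and 153 in Brd1+/- IMN. Its groups overlapped throughout and its interaction was -0.23 (SE 0.40, 95% interval -1.05 to 0.59). Sgk1 turned to 0.04 and Fkbp5 to 0.10 with striatal and oligodendrocyte scores as covariates, and Fkbp5 to 0.04 without the 2 libraries. Map3k6, a stress-activated kinase, had the smallest p of the list, 0.65 (SE 0.39, p = 0.104). Of 16 circadian clock genes, 6 were lower with IMN at an unadjusted p under 0.05 in WT and 1 in Brd1+/- mice, and the WT count was 2 under median-ratio scaling, quantile normalization or covariates. Their median interaction was 0.01 with 9 of 16 positive, -0.01 under either scaling, and 0.11 with 14 positive without the 2 libraries. Arntl, the clock activator BMAL1, was under 0.05 with 0.28 (SE 0.13, p = 0.0428), a call lost under either scaling. Its 4 medians were 35.6 and 29 TPM in WT vehicle and IMN, and 30.6 and 31.4 TPM in Brd1+/- vehicle and IMN.

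Sterol synthesis genes leaned the same way in both genotypes and more so in Brd1+/- mice. The median was -0.05 in WT and -0.18 in Brd1+/- mice, and 1 of 22 in WT and 10 of 22 in Brd1+/- mice were lower at an unadjusted p under 0.05. The counts without the 2 libraries were 3 and 8. The interaction was negative in 20 of 22 (median -0.10, against 0.02 over all genes), but 0 of 22 were under 0.05, so the difference between the genotypes was not resolved for any member. After median-ratio scaling or quantile normalization 2 were. The score of the list lay at 4.91 ± 0.159 (SD over n = 8) in WT vehicle, 4.84 ± 0.17 (SD over n = 10) in WT IMN, 4.95 ± 0.104 (SD over n = 9) in Brd1+/- vehicle and 4.77 ± 0.117 (SD over n = 9) in Brd1+/- IMN libraries. Its interaction was -0.11 with an SE of 0.09. Mvd, described above, had -0.20 (SE 0.13, p = 0.121), and Mvk, mevalonate kinase, had the smallest p with -0.30 (SE 0.17, p = 0.094). Of members named after their values were seen, Hmgcs1, an early enzyme of the pathway, had -0.14 in WT and -0.37 in Brd1+/- mice, and Srebf2, its transcriptional regulator, -0.04 and -0.19.

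Genes of the unfolded protein and integrated stress response had a like form. None of 20 in WT and 8 of 20 in Brd1+/- mice were lower at an unadjusted p under 0.05, with medians of -0.09 and -0.14. The interaction was negative in 16 of 20, with a median of -0.11 (-0.08 without the 2 libraries), and 0 were under 0.05. After median-ratio scaling or quantile normalization 1 was, with a negative interaction. Hsp90b1, an endoplasmic reticulum chaperone, had the smallest p, -0.19 (SE 0.10, p = 0.0696), with medians of 199 and 197 TPM in WT vehicle and IMN, and 205 and 188 TPM in Brd1+/- vehicle and IMN. Sdf2l1, another lumenal chaperone component named after its values were seen, had -0.38 in WT and -0.69 in Brd1+/- mice. Cytosolic heat-shock and cold-inducible genes had a median interaction of 0.01, with Hspa1b at 0.32 (SE 0.20, p = 0.118) and at 0.43 (p = 0.0393) without the 2 libraries, and interferon-stimulated genes 0.07, with Oasl2 at 0.55 (SE 0.28, p = 0.0607).

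All 12 tested genes of the BRPF, MOZ and HBO1 complexes, in which BRD1 acts, had a positive interaction, a count that became 11 under median-ratio scaling, 10 under quantile normalization and 11 without the 2 libraries. The median was 0.13, and 0.11, 0.10 and 0.16 under these alternatives. In WT mice all 12 (10 under either scaling) were lower in value with IMN (median -0.08) and in Brd1+/- mice 8 were higher (median 0.01), but 0 of 12 passed an unadjusted p of 0.05 in either genotype or in the interaction. Without the 2 libraries 1 was lower at that level in WT mice. With striatal and oligodendrocyte scores as covariates 1 was lower in WT mice and 1 was positive in the interaction. Brpf1, the paralogous scaffold, had the smallest p with 0.18 (SE 0.09, p = 0.066) and medians of 19 and 18.1 TPM in WT vehicle and IMN, and 17.9 and 19.4 TPM in Brd1+/- vehicle and IMN. The score of the list had an interaction of 0.14 with an SE of 0.08. Brd1+/- vehicle 7, which was kept in both sets of libraries, had the lowest score of its group, 3.97. Brd1 is itself 1 of the 12. Of 27 other writers, erasers and readers of histone acetylation, Hdac4, a class IIa deacetylase that shuttles with neuronal activity, was under 0.05. It had 0.53 (SE 0.23, p = 0.0268) over lowest, median and highest levels of 17.2, 23.3 and 39.1 TPM in WT vehicle, 15.1, 21.3 and 29.4 in WT IMN, 16.1, 21.2 and 24.9 in Brd1+/- vehicle and 17.5, 24.4 and 36.6 in Brd1+/- IMN, with overlap in both genotypes, and the median of that list was 0.03.

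The receptors on which imipramine and its monoamines act held 0 members under 0.05 in the interaction. With IMN, 3 of 7 muscarinic and histamine receptors were lower at an unadjusted p under 0.05 in WT (2 under either scaling) and 1 in Brd1+/- mice. Of 7 adrenergic receptors 1 was lower in each genotype, beside 4.92% of all genes in WT and 2.92% in Brd1+/- mice. Serotonin receptors had a median interaction of -0.17, which was -0.03 without the 2 libraries. Of 15 members 10 were tested, and the serotonin transporter Slc6a4 was listed at 0 in every library. Htr7, a Gs-coupled receptor, had the smallest p, -0.40 (SE 0.29, p = 0.17), and Htr2a, the main cortical Gq-coupled receptor, -0.24 (SE 0.38, p = 0.537) with medians of 13.7 and 13.2 TPM in WT vehicle and IMN, and 14 and 14.2 TPM in Brd1+/- vehicle and IMN. Adrenergic receptors had a median of 0.00 with Adra1b at -0.31 (SE 0.21, p = 0.136), and muscarinic and histamine receptors 0.06 with Chrm2 at -0.42 (SE 0.38, p = 0.27). Downstream, Gq signalling and RGS genes had -0.03 and cAMP, PKA and CREB genes -0.01, which turned to 0.02 and 0.04 without the 2 libraries and to 0.04 and 0.06 with covariates. Rgs2, a brake on Gq signalling, fell by 0.32 over both genotypes (adjusted p = 0.0196; -0.45 in WT and -0.20 in Brd1+/-) with an interaction of 0.25 (SE 0.14, p = 0.0725), and of 0.32 (p = 0.0298) without the 2 libraries. Crtc3, a CREB coactivator, had 0.28 (SE 0.16, p = 0.0816). Neurotrophins and Trk receptors had a median of 0.07, and TGF-beta and BMP feedback genes 0.10 (Smad6 at 0.34, SE 0.24, p = 0.171).

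Synaptic and ion channel lists had medians between -0.06 and 0.07. The members under 0.05 were Cacna1b, the pore of the N-type calcium channel, with 0.71 (SE 0.27, p = 0.0131), and Rac1, a GTPase of the spine cytoskeleton, with 1.11 (SE 0.48, p = 0.026). The call of Rac1 was lost with covariates and without the 2 libraries, at 0.98 (p = 0.0588). Rac1 fell into separate levels, 28.3 to 48.8 TPM or 103 to 133 TPM, with no library between. The lower level held 2 of 8 WT vehicle, 4 of 10 WT IMN, 5 of 9 Brd1+/- vehicle and 0 of 9 Brd1+/- IMN libraries, so its interaction is a difference in how many libraries lay at each level. Cacna1b had lowest, median and highest levels of 30.1, 45.9 and 64.5 TPM in WT vehicle, 24.9, 32.4 and 57.8 in WT IMN, 11.7, 34.5 and 46.2 in Brd1+/- vehicle and 32.2, 37.8 and 58 in Brd1+/- IMN, all overlapping. The 11.7 TPM belonged to Brd1+/- vehicle 7, and the next value of that group was 28.6 TPM. Glutamate receptors had a median of 0.05 (Grin2d at 0.16, SE 0.13, p = 0.231), GABA-A receptor subunits 0.00, voltage-gated channels 0.04 (-0.01 without the 2 libraries), postsynaptic proteins 0.07, synaptic vesicle proteins -0.06 (Syp at -0.14, SE 0.11, p = 0.216) and cortical neuropeptides -0.04 (Nts at -1.07, SE 0.74, p = 0.159). Nts lay at the edge of the filter on low values and would not pass it without the 8.58 TPM of Brd1+/- vehicle 6. It was listed at 0 in libraries of every group, so its size rests on the pseudocount.

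Ribosomal, mitochondrial and lysosomal lists lay at 0.04 or closer to 0. Cytoplasmic ribosomal proteins had a median of 0.04 over 77 members, with Rps21 under 0.05 at 0.48 (SE 0.21, p = 0.0305). Rps21 has processed copies elsewhere in the genome, so its level is uncertain. Nuclear-encoded complex I subunits had -0.02 (Ndufa9 at -0.14, SE 0.09, p = 0.128), mitochondrially encoded proteins 0.00 (mt-Nd6 at 0.13, SE 0.09, p = 0.17) and lysosomal genes -0.01 (Gaa at 0.19, SE 0.18, p = 0.296).

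The lists farthest from 0 were markers of cell types. Striatal neuron markers were negative in 12 of 12, with a median of -0.67, which was -0.33 and 10 of 12 without the 2 libraries. Their summed level ran from 144 to 393 TPM in WT vehicle, 175 to 412 in WT IMN, 185 to 1598 in Brd1+/- vehicle and 167 to 236 in Brd1+/- IMN libraries, the highest being Brd1+/- vehicle 6. The score had an interaction of -0.64 with an SE of 0.39. Drd2 is among the 12 and passed the filter on low values only through Brd1+/- vehicle 6. The filter thus favours its negative sign, which adds no support. Tac1, which encodes substance P, was the sole member under 0.05, with -1.13 (SE 0.49, p = 0.0274), and -0.91 (p = 0.0556) without the 2 libraries, where another member was under 0.05. Its lowest, median and highest levels were 7.92, 17.1 and 26.8 TPM in WT vehicle, 15.9, 30.8 and 45.6 in WT IMN, 9.19, 27.9 and 104 in Brd1+/- vehicle and 3.89, 24.8 and 42.4 in Brd1+/- IMN, and 9 of 10 WT IMN libraries lay above the vehicle mean, with overlap in both genotypes. In striatal tissue Tac1 marks neurons of the direct pathway, and cortical neurons also express it.

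Oligodendrocyte and myelin markers were negative in 12 of 12, with a median of -0.32 (-0.49 without the 2 libraries) and 0 under 0.05. The median was 0.61 in WT and 0.18 in Brd1+/- mice, and 0.94 and 0.36 without the 2 libraries. In WT mice 0 of 12 members were higher at an unadjusted p under 0.05, and 4 without the 2 libraries. Their summed level varied widely within each group, from 195 to 2887 TPM in WT vehicle, 237 to 3630.1 in WT IMN, 244 to 1829.8 in Brd1+/- vehicle and 235 to 3501 in Brd1+/- IMN libraries, and the score's interaction of -0.40 had an SE of 0.76. Ermn, a myelin cytoskeletal protein, had the smallest p with -0.73 (SE 0.82, p = 0.382). Deep cortical layer markers were negative in 8 of 9 with a median of -0.28 (Syt6 at -1.14, SE 0.85, p = 0.19), while upper layer markers had 0.06 (Rorb at 0.17, SE 0.19, p = 0.378) and excitatory neuron markers 0.07. With striatal and oligodendrocyte scores as covariates, 0 genes passed adjustment for the interaction, and 92 positive and 20 negative genes lay under 0.01. The part of these cell types in the other results was not tested.

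Endothelial and mural cell markers were positive in 12 of 15, with a median of 0.18 (0.15 without the 2 libraries). Pecam1, an endothelial junction protein, had 0.35 (SE 0.17, p = 0.0497), a call lost under median-ratio scaling and quantile normalization, and medians of 13.1 and 11.9 TPM in WT vehicle and IMN, and 12.6 and 14.7 TPM in Brd1+/- vehicle and IMN. With IMN, 1 of 15 was higher and 2 were lower at an unadjusted p under 0.05 in WT, and 1 was higher and 1 lower in Brd1+/- mice. Erythrocyte markers were positive in 5 of 5 with a median of 0.29 (Hbb-bs at 0.31, SE 0.37, p = 0.408). Brd1+/- IMN 5 stood apart in its group for their score (7.11, next 5.88) and for Hbb-bs (335 TPM, next 134). Choroid plexus markers, 3 of 9 tested, turned from -0.24 to 0.22 without the 2 libraries (Enpp2 at -0.23, SE 0.32, p = 0.47, turning to 0.03). Interneuron markers had -0.08 (Dlx6 at -0.33, SE 0.24, p = 0.179), oligodendrocyte precursors -0.06 (Bmp4 at 0.38, SE 0.26, p = 0.164), astrocytes -0.03, turning to 0.05 without the 2 libraries (Slc1a2 at -0.14, SE 0.10, p = 0.184) and microglia -0.02 (Aif1 at -0.24, SE 0.21, p = 0.27). The microglia median turned to 0.01 without the 2 libraries. Without the 2 libraries, 2.44% of all tested genes were positive and 1.22% negative at an unadjusted p under 0.05. Beside these, 2 of 15 endothelial, 2 of 77 ribosomal, 1 of 21 Gq and RGS, 1 of 16 circadian, 1 of 14 heat-shock, 1 of 27 histone acetylation and 1 of 39 voltage-gated channel members were positive, none of 23 postsynaptic members was, and 1 of 12 striatal members was negative. Likewise, 1 of 17 immediate-early, 1 of 22 effector and 1 of 16 glucocorticoid-responsive members were positive, with 1 of the 16 negative.

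**Figure D5:**
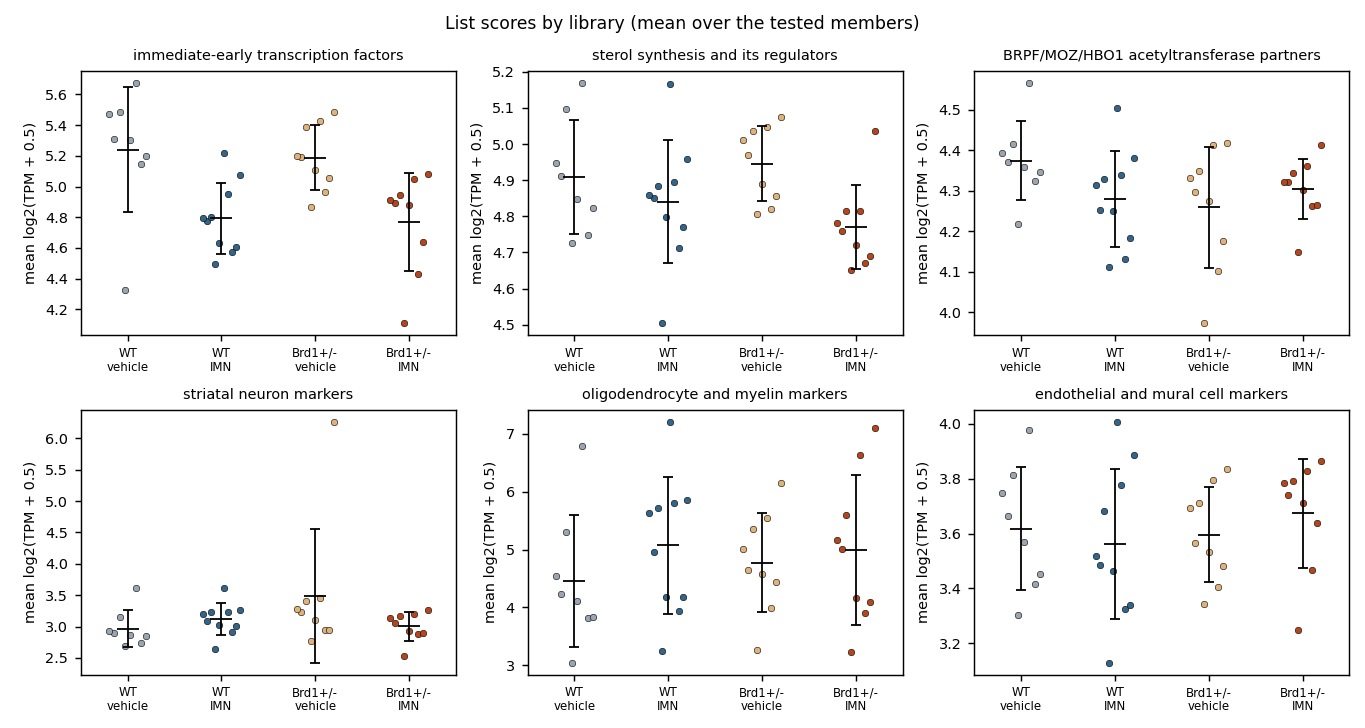
Score of 6 lists in every library (points; mean log2(TPM + 0.5) of the tested members) with group mean and SD (bars), by group (n = 8, 10, 9 and 9). Immediate-early scores are lower with imipramine in both genotypes, the sterol score has its lowest mean, 4.77, in Brd1+/- IMN, and 1 Brd1+/- vehicle library stands at 6.26 for striatal markers.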

How the data were processed

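The authors sequenced 1 mouse per library as single-end reads, filtered them, aligned them with HISAT2 2.1.0 to GRCm38 and quantified genes with StringTie 1.3.4. The submitters' processing notes also name FastQC and Trimmomatic. The deposited values are TPM per gene, which keep no depth, so the depth per library is unknown. Strand use and the handling of multi-mapped reads are not stated in the sources used here, so antisense genes, pseudogenes and small RNA genes are uncertain. Of the value columns, 0 were left unmatched to a library.

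Genes averaging 1 TPM or more were tested as log2(TPM + 0.5), a scale that understates changes of low genes, with limma 3.58.1 in R 4.3.3. One model held the 4 groups, with no covariate, and the interaction was a contrast with 32 residual degrees of freedom. P-values were adjusted by Benjamini-Hochberg over all genes tested. Tables and plots used Python 3.11.15, pandas 2.3.3, numpy 2.4.6, scipy 1.17.1 and matplotlib 3.10.9. The fit was tested on simulated data. Named genes were the targeted gene, 3 of those that the study marks (Drd2, Slc25a35, Kcnd2), the 10 with the smallest interaction p in each direction, the 10 with the smallest averaged p, the member of each list with the smallest interaction p, and 8 further genes (Fos, Arc, Npas4, Bdnf, Mvd, Sgk1, Fkbp5, Htr2a). For 3 lists the member with the smallest interaction p is not reported here. Members and lists were chosen with earlier results of these data known. Positions are from GENCODE M21. Alternatives covered the pseudocount, the filter, the scaling, array weights, covariates, a replicate block and leaving out libraries.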

Additional observations from a re-analysis of the deposited data

Results flagged for a closer look

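In 464 groups of gene levels and list scores, 48 values stood far from the rest of their group. Chance alone gives about 1 in 20 where groups are independent. These groups share libraries, and WT vehicle 1 alone held 9 of the 48, so no excess is read from the count. No gene's IMN effect differed between genotypes past adjustment.

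WT vehicle 1 was lowest of its group for Nptx2 (66 TPM, next 98.1), Gadd45b (15.3, next 31) and Bdnf (8.74, next 26.2) and highest for Sgk1 (98.8, next 47.2). It was also lowest for the scores of serotonin receptors (2.06), immediate-early factors (4.33), neurotrophins (4.23), cortical neuropeptides (4.16) and upper cortical layers (3.93).

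Brd1+/- vehicle 6 was highest for Drd2 (34.7 TPM, next 1.96), Enpp2 (639.9, next 121), the striatal score (6.26) and the choroid plexus score (8.62), and lowest for Aif1 (5.25). Brd1+/- vehicle 7 was lowest for Dynlt1c (2.56 TPM), Cacna1b (11.7, next 28.6), Htr2a (4), the GABA-A score (5.19) and the postsynaptic score (6.69), and highest for Htr7 (11.5, next 5.94). Brd1+/- IMN 6 was lowest for Tac1 (3.89 TPM, next 15.4), Htr2a (2.1, next 9.91) and the glutamate receptor score (4.8), and highest for Chrm2 (12.7).

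In the other vehicle libraries, Brd1+/- vehicle 8 was lowest for Socs2 (11.4 TPM) and Gm17484 (2.24), Brd1+/- vehicle 9 for Gm28913 (0.571), Brd1+/- vehicle 1 for Chrm2 (2.49) and Brd1+/- vehicle 3 for Hbb-bs (60.3). Brd1+/- vehicle 5 was highest for Adra1b (24.6 TPM) and Rorb (9.69). WT vehicle 7 was lowest for Epha3 (1.3 TPM) and highest for the cAMP (5.93) and glutamate receptor (5.36) scores.

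In the other IMN libraries, WT IMN 9 was lowest for Gm28913 (listed at 0) and highest for Grin2d (10.8 TPM), WT IMN 7 was highest for Ddit4 (38.8), and WT IMN 6 was highest for Fos (61.8) and Arc (300.2). WT IMN 3 was lowest for Pmepa1 (21 TPM) and WT IMN 1 for the GABA-A score (5.33). Brd1+/- IMN 5 was highest for Hbb-bs (335 TPM), the erythrocyte score (7.11) and the sterol score (5.04). Brd1+/- IMN 3 was highest for Gm13602 (2.4 TPM), Brd1+/- IMN 8 for mt-Nd6 (19500.0), Brd1+/- IMN 7 for Syp (1241) and Brd1+/- IMN 1 for the choroid plexus score (4.17).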

How the results depend on the processing

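The interaction had 0 genes at an adjusted p under 0.05 in limma under every alternative run and with each library left out. With single libraries left out, positive genes at p under 0.01 ranged from 31 to 64 and negative genes from 13 to 44. Adjusted calls ranged from 0 to 41 in WT (41 without WT vehicle 1, 4 without WT IMN 9), from 1 to 4 in Brd1+/- (4 without vehicle 6, 3 without vehicle 1, 2 or 7), and from 38 to 187 for the averaged effect. The averaged count was 38 without WT vehicle 2 or 3 or Brd1+/- vehicle 3 or 4, 40 without Brd1+/- IMN 2, 41 without WT IMN 5, 46 without Brd1+/- IMN 4, 47 without WT vehicle 5, 49 without Brd1+/- IMN 6, 135 without Brd1+/- IMN 7 and 187 without WT vehicle 1.

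Positive interactions at p under 0.01 (49) became 98 with at least 0.1 TPM in 8 libraries, 114 with no filter, 91 with array weights and 92 with striatal and oligodendrocyte covariates. Negative ones (21) became 42, 48 and 89 under the first 3 of these, 36 under median-ratio scaling and 43 under quantile normalization. Adjusted calls in WT (0) became 53 with array weights, 1 with covariates and 27 without WT vehicle 1 and Brd1+/- vehicle 6, and those in Brd1+/- (1) became 5, 2 and 4. The averaged count (76) became 40 with no filter, 283 with array weights, 47 with covariates and 177 without both libraries. More genes were tested under the looser filters, and the cause of the other moves was not tested.

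The median of striatal markers turned to 0.10 with covariates, which include their own score. With covariates the interaction also turned for Drd2 (0.29), Pmepa1 (0.05), Enpp2 (0.23), Npas4 (-0.01), Bdnf (-0.01), Sgk1 (0.04) and Fkbp5 (0.10). Without both libraries it turned for Pmepa1 (0.02), Mycn (0.03), Enpp2 (0.03) and Fkbp5 (0.04), and for Mycn also with array weights (0.09) and the replicate block (0.01). With single libraries left out, signs turned within -0.01 to 0.28 for Bdnf, -0.01 to 0.13 for Ddit4, -0.29 to 0.06 for Enpp2, -0.12 to 0.03 for Fkbp5, -0.15 to 0.02 for Fos, -0.43 to 0.04 for Htr2a, -0.06 to 0.07 for Mycn, -0.03 to 0.30 for Npas4, -0.02 to 0.20 for Nptx2 and -0.06 to 0.05 for Pmepa1.

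Replicate numbers did not pair the libraries: deviations of 51 same-numbered pairs had a median r of -0.0179, 7 were over 0.1, and 1 library matched its own number best. With the replicate block the interaction had 0 adjusted calls, 65 positive and 14 negative genes at p under 0.01, and the averaged effect 45 calls. Depth per library is unknown, so precision rests on the spread between mice.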
